A study of Mus musculus with 2 samples.

Results

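Homeobox genes encode transcription factors that share a DNA-binding homeodomain, and the 54 genes described here are homeobox genes that lie outside the Hox clusters. The rule takes them by name, as members of the TALE, NKL, PRD, LIM, SINE and CUT classes together with Gbx2. A position was assigned to a gene if it lay in the body of the gene model (mouse build NCBIM37, mm9) or in the 2 kb upstream of the gene start, which is called the promoter below. All 54 genes, of 22225 gene models in all, had covered positions, and together they held 5052 of the 826937 positions covered in both libraries.

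Mouse embryonic fibroblasts (MEFs) of the strain C57BL/6, either wildtype (wt) or lacking the oestrogen receptor β gene on both alleles (Esr2 -/-, βerko), were compared by reduced representation bisulfite sequencing (RRBS). RRBS cuts DNA at CCGG with MspI, and cytosines that bisulfite leaves unconverted are scored as methylated. There was 1 library per genotype, made from pooled DNA of 3 batches, so that differences between the libraries cannot be set against a spread between cultures and cannot be told apart from other differences between the 2 pools. Coverage was known only at differentially methylated positions (DMPs), which are those read more than 4 times per library that were below 20 % methylated in one genotype and over 80 % in the other. DMPs methylated in wt but not in βerko MEFs are called hypomethylated, and the reverse hypermethylated.

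Homeobox genes outside the Hox clusters direct the patterning of the embryo, from the forebrain, heart and pancreas to the limb and the skull, and most are silent in cells that do not use them. In many cell types their CpG-rich starts are held silent by Polycomb proteins rather than by DNA methylation, whereas CpG methylation is found more often around these islands and within the gene. Methylation of a gene body does not by itself tell whether the gene is transcribed.

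Stretches with clusters of hypomethylated DMPs are shown first, to give the sequence around the DMPs with known read counts. A cluster is a run of at least 3 DMPs of 1 direction with gaps of at most 100 bp. Stretches that overlap an untranslated region are not printed, among them those of Shox2, Barx1 and Cux1. The sequences are those of NCBIM37, given 5′ to 3′ on the strand of the gene, and capitals mark the CpGs with a DMP on either strand. The first 4 lie in coding sequence of Iroquois genes and of Nkx3-2, at chr13:72768937-72769030 (plus strand), chr13:73402980-73403023 (plus), chr8:94323815-94323911 (minus) and chr5:42152921-42153024 (minus). The Tlx3 stretch lies upstream of the gene at chr11:33104183-33104323 (minus), the Meis2 stretch in a noncoding exon at chr2:115887740-115887792 (minus), and the Cux2 stretch in an intron at chr5:122498389-122498419 (minus).
Irx2: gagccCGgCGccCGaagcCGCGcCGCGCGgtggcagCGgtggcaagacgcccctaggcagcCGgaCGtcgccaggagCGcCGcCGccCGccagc
Irx4: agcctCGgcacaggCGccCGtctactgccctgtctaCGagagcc
Irx3: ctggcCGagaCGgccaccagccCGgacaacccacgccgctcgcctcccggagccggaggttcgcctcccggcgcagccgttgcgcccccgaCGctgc
Nkx3-2: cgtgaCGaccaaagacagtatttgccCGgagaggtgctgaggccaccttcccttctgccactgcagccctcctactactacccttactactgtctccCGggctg
Tlx3: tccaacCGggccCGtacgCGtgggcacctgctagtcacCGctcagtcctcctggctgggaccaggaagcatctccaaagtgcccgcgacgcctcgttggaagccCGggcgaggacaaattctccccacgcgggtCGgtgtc
Meis2: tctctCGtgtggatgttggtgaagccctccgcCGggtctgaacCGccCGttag
Cux2: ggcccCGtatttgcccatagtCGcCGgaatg

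Upstream pairs of DMPs of Alx1 and Six2 are shown beside them, because they pointed in opposite directions. The distal Alx1 pair lies at chr10:102493159-102493201 (minus) and the proximal pair at chr10:102492063-102492083 (minus), and both pairs were hypomethylated. The Six2 pair lies at chr17:86088536-86088739 (minus) and was hypermethylated.
Alx1 distal: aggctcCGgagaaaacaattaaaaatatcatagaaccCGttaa
Alx1 proximal: ttactcCGgtgcatcCGacag
Six2: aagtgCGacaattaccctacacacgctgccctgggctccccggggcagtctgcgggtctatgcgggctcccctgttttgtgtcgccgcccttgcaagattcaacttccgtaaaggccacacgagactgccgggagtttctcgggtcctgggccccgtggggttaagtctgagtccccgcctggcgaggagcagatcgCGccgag

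Methylation of the homeobox genes was lower in the βerko than in the wt library. Over their 5052 positions the mean was 36.6 % in wt and 27.3 % in βerko MEFs, while over all 826937 positions it was 40.7 and 38.8 %. The homeobox genes thus started below the average of all positions and ended further below it. A drop of more than 20 percentage points was seen at 23.5 % of their positions, against 10.2 % of all positions. A rise of that size was seen at 6.69 % of their positions, against 6.60 % of all positions, so the 2 shares of gains were close to each other. Neighbouring positions share reads and are not independent, and no test was made of these shares.

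The positions of the homeobox genes were often partly methylated in wt MEFs. Between 20 and 80 % methylation lay 31.1 % of them in wt, against 17.2 % of all positions. Of these 1572 partly methylated positions, 49.2 % were below 20 % in βerko MEFs, against 28.0 % of all partly methylated positions, and 9.80 % were above 80 %, against 29.5 %. Of the 1062 positions above 80 % in wt, 12.1 % were below 20 % in βerko MEFs and a further 31.4 % were partly methylated, against 2.24 and 17.2 % of all such positions. Of the 2418 positions below 20 % in wt, 90.7 % stayed there, against 95.2 % of all.

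At 556 CpGs of the homeobox genes both strands were covered, which gives 2 values of the same CpG in each library. The strands differed by a median of 5.36 percentage points in wt and 3.30 in βerko MEFs, more than over all positions, where the medians were 1.80 and 1.35. Of 118 CpGs that were lower by more than 20 points on the plus strand, 90 were lower by more than 20 points and 112 were lower by any amount on the minus strand. Over all positions, 5382 and 7112 of 7855 such CpGs were.

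By distance from the gene start, the homeobox genes were lower in βerko MEFs in every interval from 2 kb upstream to 5 kb downstream. In the first 500 bp of the gene, which held the largest number of positions of these intervals, the mean was 18.1 % in wt and 8.27 % in βerko MEFs. Over all gene models the same interval had 7.42 and 5.13 %. Between 1500 and 2000 bp into the gene the homeobox genes had 51.4 % in wt and 34.4 % in βerko MEFs, and all gene models had 37.8 and 30.9 %. With each of the 33 genes in this interval weighted equally, the homeobox genes had 51.4 and 41.5 %, so that genes with many covered positions made up part of the pooled difference.

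**Figure D1:**
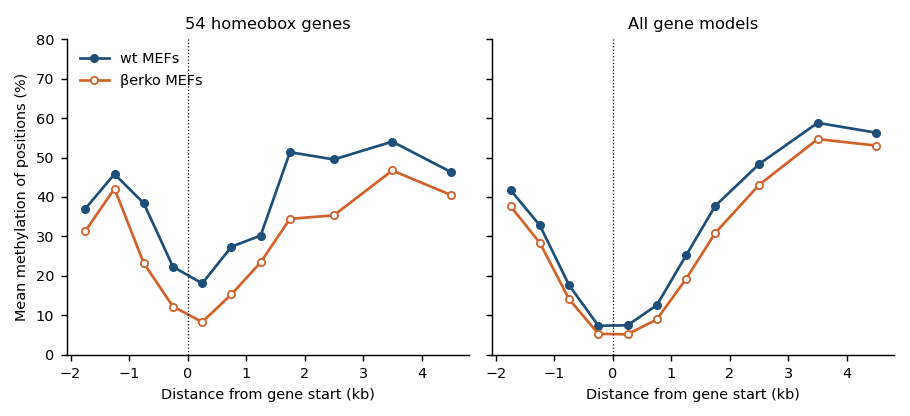
Mean methylation (%) of covered positions in wt (filled) and βerko MEFs (open) against the distance from the gene start (kb, negative values upstream), for the 54 homeobox genes and for all gene models. Each point is the mean over all positions of an interval. In the first 500 bp the homeobox genes have 18.1 % in wt and 8.27 % in βerko MEFs, and all gene models 7.42 and 5.13 %.

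At least 5 covered positions were needed for a mean per gene. This held for 36 of 54 promoters and for all 54 gene bodies. The remaining promoters had either no covered position, which was so for 11 genes (Cux2, Dlx5, Gbx2, Lhx3, Lhx6, Lhx9, Msx2, Nkx2-5, Prrx2, Satb1 and Shox2), or 2 to 4 positions, which was so for 7 genes (Dlx1, Dlx4, Meis3, Nkx3-2, Six3, Six4 and Tlx1).

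Of the 36 promoters, 7 were lower by more than 20 percentage points in βerko MEFs, which is 19.4 %, against 4.92 % of all gene models with at least 5 positions. A single promoter was higher by more than 20 points, against 0.481 % of all gene models. The median difference over the 36 promoters was −7.51 percentage points, and over all 7066 promoters it was −0.18. A promoter that is unmethylated in wt cannot be lower by 20 points, and the median wt level was 31.8 % for the homeobox promoters but 1.33 % for all promoters. Among promoters with at least 20 % methylation in wt, 7 of 24 homeobox promoters were lower by more than 20 points, which is 29.2 %, against 22.5 % of all such promoters, and 1 was higher, against 1.42 %. The share of losses was near that of other promoters with a like starting level.

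Of the 54 gene bodies, 10 were lower by more than 20 points, which is 18.5 %, against 3.13 % of all gene models. None was higher by more than 20 points, against 0.639 % of all gene models. Bodies were lower by any amount in 43 genes and higher in 11, with a median difference of −5.68 percentage points against −0.36 over all 14555 bodies. Here the medians of the starting levels were alike, 34.2 % in wt for the homeobox genes and 34.0 % for all gene models. Their spread was not, since 44 of 54 homeobox bodies but 9476 of all 14555 bodies had at least 20 % in wt. A body below that level cannot be lower by more than 20 points. Among bodies with at least 20 % methylation in wt, 10 of 44 homeobox genes were lower by more than 20 points, which is 22.7 %, against 4.81 % of all such bodies, and none was higher, against 0.813 %. In this comparison the starting levels differed, with a median of 37.0 % for the homeobox genes and 53.1 % for all. The bodies of the homeobox genes were covered more densely than most, with a median of 75.5 positions per gene against 28, and the part of coverage in the result was not tested.

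The remaining 94 homeobox genes outside the Hox clusters were looked up in the same way. Their bodies were lower by more than 20 points in 13 of 88 genes and higher in 1, with a median difference of −7.22 percentage points. Their promoters were lower in 7 of 50 genes and higher in none. These counts and the median lay near those of the 54 genes. The 39 Hox cluster genes had differences of both signs, with 6 bodies lower and 4 higher of 38, and 6 promoters lower and 5 higher of 25.

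The Iroquois genes, which pattern the neural plate, heart and limb, belong to the TALE class and lie in 2 groups, with Irx1, Irx2 and Irx4 on chromosome 13 and Irx3, Irx5 and Irx6 on chromosome 8. Mean methylation of the Irx3 body was 46.3 % in wt and 11.6 % in βerko MEFs over 59 positions, the largest difference among the 54 bodies. The Irx2 body had 43.8 % in wt and 19.1 % in βerko MEFs over 98 positions. In Irx2 the wt mean was a mix of 52 positions below 20 % and 41 above 80 %, and 35 of the 98 positions were lower by more than 20 points. In Irx3, by contrast, positions close to the gene start were also lower, and 49 of 59 positions were below 20 % in βerko MEFs against 18 in wt.

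The remaining Iroquois genes differed less in their means. The Irx4 body had 32.4 % in wt and 18.4 % in βerko MEFs over 93 positions, of which 31 were lower by more than 20 points, and Irx5 had 49.3 and 43.9 % over 104 positions. Irx1, which lies 665 kb from Irx2, had 34.8 and 36.0 % over 85 positions, of which 2 were lower and 2 higher by more than 20 points. Within the chromosome 13 group, Irx2 and Irx4 thus had many lower positions and Irx1 had few. The Irx6 body was the one with the largest rise of all 54, from 3.45 % in wt to 14.3 % in βerko MEFs, but over 10 positions only.

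The promoters of Irx1, Irx2 and Irx5 were unmethylated in both libraries, at 1.37 and 0.88 % for Irx1, 1.06 and 0.21 % for Irx2 and 1.56 and 1.33 % for Irx5. Higher promoter levels were seen for Irx3 with 31.0 % in wt and 24.5 % in βerko MEFs, Irx4 with 27.6 and 16.2 %, and Irx6 with 22.5 and 10.4 %.

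Meis1, Meis2, Meis3 and Pbx2 are TALE proteins that bind DNA together with Hox proteins. The Meis2 body had 55.3 % in wt and 29.1 % in βerko MEFs over 91 positions, which covered 4.09 % of the CpGs of this long gene. Meis1 had the highest body level of the 54 genes in wt, 90.3 %, and 75.4 % in βerko MEFs. The Meis3 body, with 17.3 and 18.6 %, and the Pbx2 body, with 26.1 and 26.4 %, hardly differed between the libraries. The promoters of Meis1 (1.03 and 1.22 %) and Meis2 (1.99 and 6.38 %) were low in both, and that of Pbx2 (55.6 and 58.3 %) was not. In all, 3 of 10 TALE bodies and none of 9 TALE promoters were lower by more than 20 points.

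**Figure D2:**
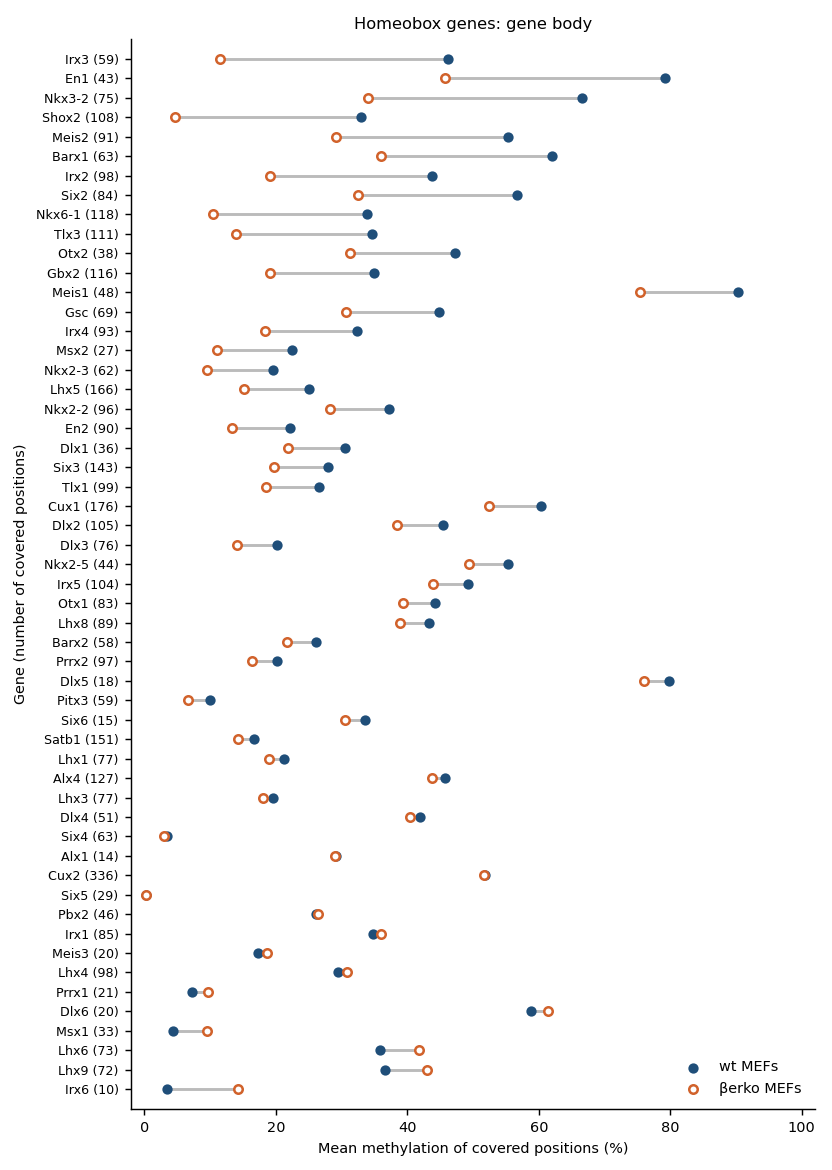
Mean methylation (%) of covered positions in the gene body of each of the 54 homeobox genes, in wt (filled) and βerko MEFs (open), ordered by the difference, with the number of positions in parentheses. There are no error bars, since there is 1 library per genotype. The first 10 genes, from Irx3 to Tlx3, are lower by more than 20 percentage points in βerko MEFs, and none is higher by that much.

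The NKL genes, 19 of the 54, held 5 of the 10 bodies with a difference beyond 20 points. En1, which acts at the border of midbrain and hindbrain and in the ventral limb, had a mean body level of 79.1 % in wt and 45.8 % in βerko MEFs over 43 positions. Nkx3-2, a factor of cartilage and axial skeleton, had 66.5 and 34.1 % over 75 positions, of which 51 were lower by more than 20 points. Barx1, a factor of stomach and tooth development, had 62.0 and 35.9 % over 63 positions. These 3 bodies were among the more methylated ones in wt and kept intermediate levels in βerko MEFs. Nkx6-1, a factor of pancreatic β cells and motor neurons, had 33.8 and 10.4 % over 118 positions. Tlx3, which specifies excitatory sensory neurons in the spinal cord, had 34.6 and 14.0 % over 111 positions. In both, few positions of the body were above 80 % in wt, 5 in Nkx6-1 and 12 in Tlx3, so that the difference arose mostly at partly methylated positions.

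Among the NKL promoters, that of Barx1 had 74.0 % in wt and 28.9 % in βerko MEFs over 26 positions, and 22 of these were lower by more than 20 points. The Tlx3 promoter had 71.5 and 34.1 % over 44 positions, with 32 lower. The Nkx2-2 promoter had 34.9 and 10.3 % over 50 positions, with 28 lower. Barx1 and Tlx3 were the 2 genes with a loss beyond 20 points in promoter and body alike. Nkx2-2, a factor of pancreas and ventral spinal cord, had 37.2 and 28.3 % in its body.

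En1 differed in sign between its parts. Its promoter had 48.4 % in wt and 54.1 % in βerko MEFs, with 8 of 35 positions lower and 11 higher by more than 20 points, while no position of its body was higher by that much. The related gene En2 was lower in both parts, with 22.8 and 5.23 % in the promoter and 22.2 and 13.4 % in the body. The Nkx6-1 promoter had 43.8 and 27.8 %.

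The Dlx genes, which pattern the branchial arches, limbs and forebrain, differed little in the mean levels of their bodies. Levels in wt and βerko MEFs were 30.5 and 21.9 % for Dlx1, 45.5 and 38.5 % for Dlx2, and 20.2 and 14.1 % for Dlx3. They were 41.9 and 40.5 % for Dlx4, 79.7 and 76.0 % for Dlx5, and 58.9 and 61.4 % for Dlx6. In Dlx4 the like means came from 11 positions lower and 11 higher by more than 20 points, of 51. The pairs Dlx1 and Dlx2, Dlx3 and Dlx4, and Dlx5 and Dlx6 lie within 9.43, 15.2 and 9.24 kb of each other, and all 6 bodies stayed within 10 points of wt. The promoters of Dlx2, Dlx3 and Dlx6 had 19.2 and 11.3 %, 34.0 and 26.9 %, and 16.4 and 8.42 %.

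Of the other NKL genes, the heart factor Nkx2-5 had 55.4 and 49.4 % in its body, and Nkx2-3, which acts in gut and spleen, 19.6 and 9.60 %. The spleen factor Tlx1 had 26.5 and 18.5 %, and Barx2 26.1 and 21.8 %. Msx2, which acts in skull and limb, had 22.5 and 11.1 %, whereas the body of the related Msx1 was low in both libraries with 4.33 and 9.54 %. Promoters had 43.7 and 34.0 % for Nkx2-3, 21.9 and 22.4 % for Barx2 and 15.5 and 17.1 % for Msx1.

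The PRD genes showed the widest range of promoter differences, with 3 of 7 promoters lower and 1 higher by more than 20 points. Alx1 and Alx4, which act in the development of skull and face, stood at the opposite ends of the 36 promoters. The Alx1 promoter had 76.4 % in wt and 13.8 % in βerko MEFs, and all 10 positions were lower by more than 20 points, on 3 MspI fragments. The Alx4 promoter had 50.9 % in wt and 81.1 % in βerko MEFs, and 7 of 9 positions were higher by more than 20 points. In Alx1 the body did not follow, with 29.2 and 28.9 % over 14 positions. The Alx4 body had 45.8 and 43.8 % over 127 positions.

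Prrx1, a factor of limb mesenchyme, had 89.8 % in wt and 60.2 % in βerko MEFs in its promoter over 10 positions, all more than 1 kb before the gene start. Otx1, a forebrain factor, had 91.3 and 66.4 % over 17 positions, of which 7 were lower by more than 20 points and 1 was higher. Their bodies had 7.28 and 9.67 % for Prrx1 and 44.2 and 39.4 % for Otx1. The related Otx2 had 55.6 and 38.3 % in the promoter and 47.3 and 31.3 % in the body. Shox2, which acts in the proximal limb and the sinoatrial node, was the PRD gene whose body differed most, with 32.9 % in wt and 4.63 % in βerko MEFs over 108 positions. In Shox2, 27 positions of the body were above 80 % in wt and none in βerko MEFs. The body of Prrx2 had 20.1 and 16.3 %, and that of Pitx3, a factor of midbrain dopaminergic neurons and lens, 9.98 and 6.59 %. The Pitx3 promoter had 8.23 and 10.7 %. Gsc, a gene of the gastrula organiser, had the highest promoter level of all in wt, 95.6 %, and 82.3 % in βerko MEFs, and its body had 44.8 and 30.6 %.

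**Figure D3:**
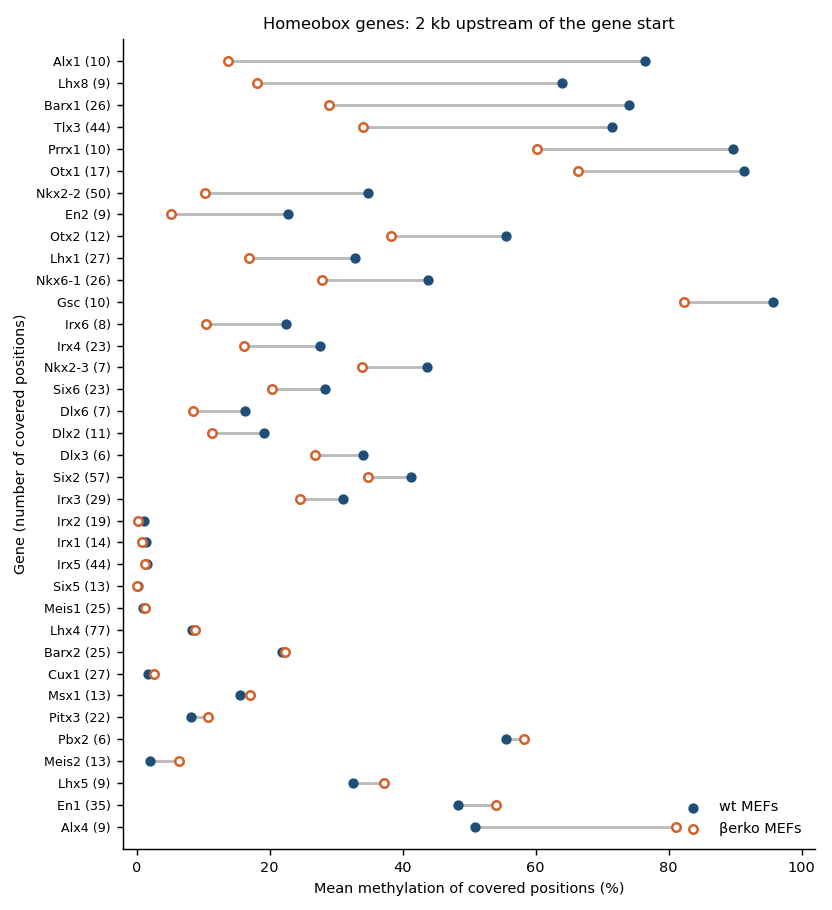
Mean methylation (%) of covered positions in the 2 kb upstream of the gene start, for the 36 homeobox genes with at least 5 positions, in wt (filled) and βerko MEFs (open), ordered by the difference, with the number of positions in parentheses. There are no error bars, since there is 1 library per genotype. Alx1 at the top has 76.4 % in wt and 13.8 % in βerko MEFs, and Alx4 at the bottom 50.9 and 81.1 %.

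LIM genes encode homeodomain proteins with LIM domains and specify neurons and endocrine cells. None of the 7 LIM bodies and 1 of 4 LIM promoters was lower by more than 20 points. That promoter was of Lhx8, a factor of cholinergic neurons, with 64.0 % in wt and 18.1 % in βerko MEFs over 9 positions, and its body had 43.2 and 38.9 %. Lhx6, a factor of cortical interneurons, and Lhx9, which is needed for the gonad, had higher body levels in βerko MEFs, with 35.9 and 41.8 % for Lhx6 and 36.7 and 43.0 % for Lhx9. In Lhx9, 22 of 72 positions were higher by more than 20 points and 12 were lower.

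For the pituitary factors Lhx3 and Lhx4, body levels were 19.6 and 18.1 %, and 29.4 and 30.9 %. For Lhx1, which is needed for head and kidney, they were 21.2 and 18.9 %, and for Lhx5 25.1 and 15.2 %. The promoters of Lhx1, Lhx4 and Lhx5 had 32.8 and 16.8 %, 8.41 and 8.72 %, and 32.6 and 37.2 %.

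Among the SINE genes, the body of Six2, which maintains nephron progenitors, had 56.7 % in wt and 32.4 % in βerko MEFs over 84 positions. Its promoter had 41.2 and 34.7 %, a small difference of the means that came from 19 positions lower and 13 higher by more than 20 points, of 57. The eye and forebrain factor Six3, which lies 52.5 kb from Six2, had 28.0 and 19.8 % in its body. Six4 and Six5 were almost unmethylated in both libraries, with body levels of 3.40 and 3.02 % for Six4 and 0.19 and 0.31 % for Six5, the lowest of the 54 genes. The Six5 promoter had 0.20 and 0 %. Six6, a further eye factor, had 33.6 and 30.6 % in its body and 28.3 and 20.4 % in its promoter.

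The CUT genes and Gbx2 stayed within 20 points of wt. Cux1 had 60.3 and 52.4 % in its body and 1.73 and 2.66 % in its promoter. Cux2, a marker of upper-layer cortical neurons, had 51.8 and 51.6 % over 336 positions, with 47 lower and 41 higher by more than 20 points. Satb1, which organises chromatin in thymocytes, had 16.6 and 14.2 %. Gbx2, which acts in the anterior hindbrain, had 34.9 and 19.1 %.

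Many of these positions also lie in another gene model or in the 2 kb upstream of one, so that they cannot be given to the homeobox gene alone. This was so for all positions in 11 of the 36 promoters and 4 of the 54 bodies. All 59 positions of the Irx3 body were shared with the lincRNA gene D230002A01Rik, of which 40 lay in its body and 19 upstream of it. All 44 positions of the Tlx3 promoter were shared with Gm12116 and all 50 of the Nkx2-2 promoter with Nkx2-2as, both lincRNA genes on the opposite strand. All 10 positions of the Gsc promoter and 49 of 69 in its body were shared with the protein-coding gene model Gm10000. Without shared positions, Shox2, whose neighbour is Rsrc1, had 72.6 % in wt and 9.78 % in βerko MEFs over its 42 remaining body positions. The Tlx3 body then had 19.3 and 6.06 % over 72 positions, which takes it below a difference of 20 points, and the Meis1 body had 91.5 and 69.3 % over 33 positions, which takes it beyond. The Gsc body then had 97.2 and 93.8 % over 20 positions.

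**Figure D4:**
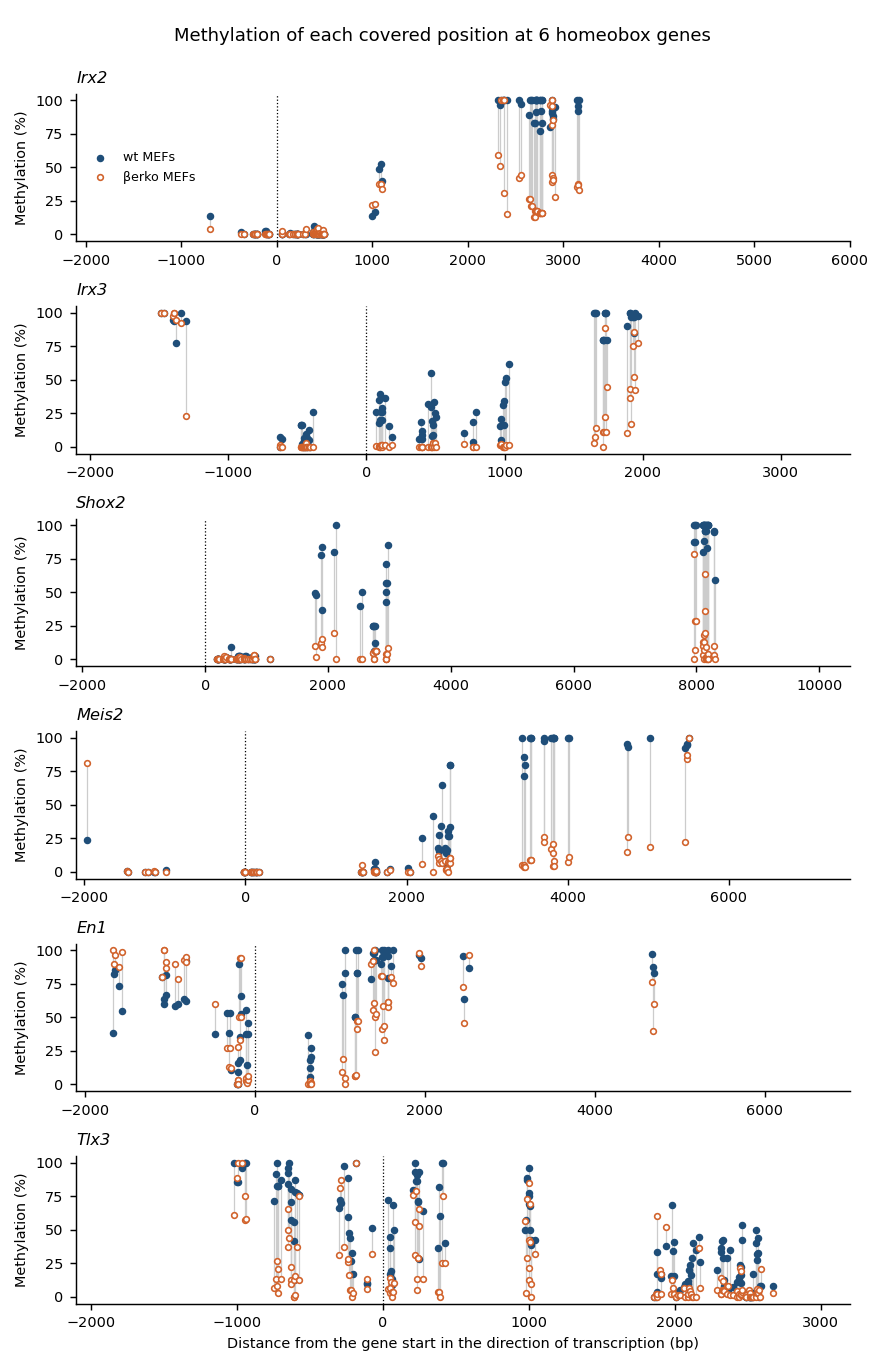
Methylation (%) of each covered position in wt (filled) and βerko MEFs (open) against the distance from the gene start (bp, negative values upstream) for Irx2, Irx3, Shox2, Meis2, En1 and Tlx3. A grey line joins the 2 values of a position, the dotted line marks the gene start, and positions farther into Meis2 than its axis are not drawn. In Irx2 the 15 clustered DMPs lie 2697 to 2779 bp into the gene, and in Shox2 the 16 clustered DMPs lie 8101 to 8292 bp into the gene.

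The reads behind these differences were known at DMPs. The homeobox genes held 126 hypomethylated DMPs, which is 2.49 % of their positions, against 0.7 % of all positions. They held 12 hypermethylated DMPs, which is 0.238 %, against 0.237 % of all positions. At least 1 hypomethylated DMP was found in 27 of the 54 genes, against 10.9 % of gene models with covered positions, and at least 1 hypermethylated DMP in 10 genes, against 4.93 %. In 4 genes, Cux2, En1, Lhx9 and Six2, both kinds were present, and 21 genes had neither. Hypomethylated clusters were found in 10 genes, against 1.58 % of gene models, and no homeobox gene had a hypermethylated cluster, against 0.0871 %. Of the other homeobox genes with covered positions, 46 of 89 had a hypomethylated DMP, 7 had a hypomethylated and 2 a hypermethylated cluster. Of the 39 Hox cluster genes, 9 had a hypomethylated DMP, 6 a hypomethylated and 4 a hypermethylated cluster. Genes with more covered positions have more chances of a DMP, and this was not adjusted for.

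For every DMP the reads of the 2 libraries were compared with Fisher's exact test (two-sided), and the Benjamini-Hochberg adjustment was made over all 826937 positions, tested or not. With an adjusted p-value below 0.05, 122 of the 126 hypomethylated and 11 of the 12 hypermethylated DMPs differed. The 4 hypomethylated DMPs that missed the threshold, in Irx3, Lhx8, Nkx6-1 and Shox2, had 5 or 6 reads in wt. Over the whole series, 5313 of 5787 hypomethylated and 1755 of 1960 hypermethylated DMPs passed, so most DMPs did so with or without the homeobox genes. The passing DMPs made up 0.642 and 0.212 % of all positions. The test compares the reads of 2 libraries and not the genotypes, DMPs were picked for a large difference, and PCR copies were not removed by molecular identifiers, so that tests and intervals cover counting error only.

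Coverage at the hypomethylated DMPs was lower in wt, with a median of 14.5 reads against 38.5 in βerko MEFs, and the wt library was the shallower one at 109 of 126 DMPs, which is 86.5 %. Over all hypomethylated DMPs it was the shallower one at 83.9 %. At the 12 hypermethylated DMPs the medians were 34.5 and 26 reads. The part of depth in these counts was not tested.

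**Figure D5:**
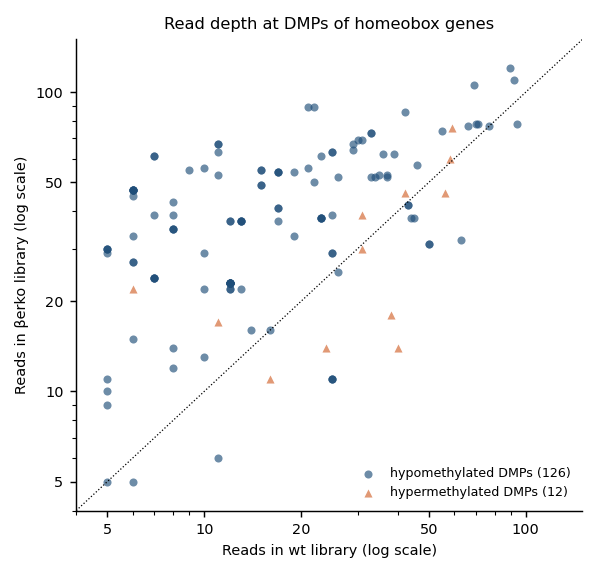
Reads per position in the βerko library against reads in the wt library, both on log scales, at the 126 hypomethylated (circles) and 12 hypermethylated DMPs (triangles) of the homeobox genes. The dotted line marks equal depth, and darker symbols are overlapping positions. At 109 of the 126 hypomethylated DMPs the wt library has fewer reads.

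Of the 126 hypomethylated DMPs, 49 were in coding sequence, which is 38.9 %, against 28.3 % of the covered positions of the homeobox genes. In untranslated regions lay 33 (26.2 %, against 21.6 %), in introns 17 (13.5 %, against 32.4 %), in noncoding exons 11 (8.73 %, against 1.98 %) and upstream 16 (12.7 %, against 15.7 %). These shares were not tested, since DMPs of a cluster are not independent. The hypomethylated DMPs in noncoding exons all lay in Meis2 or Otx1, and most of them in Meis2. The 12 hypermethylated DMPs were in introns in 4 cases, upstream in 3, in coding sequence and untranslated regions in 2 cases each, and in a noncoding exon in 1.

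Of the 126 hypomethylated DMPs, 70 fell into 11 clusters, which is 55.6 %, against 38.5 % of all hypomethylated DMPs. The largest was at the far end of Shox2, with 16 DMPs in 192 bp of coding and untranslated sequence (chr3:66777401-66777592). On average 97.4 % of reads were methylated in wt and 5.18 % in βerko MEFs, but the median depth was 6 reads in wt against 46 in βerko MEFs, and adjusted p-values of Fisher's exact test reached from 9.9e-16 to 0.0453. The second was the Irx2 stretch printed above, with 15 DMPs in 83 bp of coding sequence and 95.6 % in wt against 16.3 % in βerko MEFs (median depth 12 and 23 reads). Of the 17 CpGs in this stretch, 15 were thus DMPs. The DMPs of a cluster share reads and count as few independent observations.

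Upstream of Tlx3, 6 DMPs lay 600 to 729 bp before the gene start, with 85.3 % in wt and 10.3 % in βerko MEFs (median depth 23 and 38 reads). They also lie in the gene model Gm12116. Of the 11 clusters, this was the one outside the body of its homeobox gene. In Irx4, 5 DMPs at 4 CpGs had 93.3 and 8.92 % (median depth 11 and 67 reads), although the Irx4 body as a whole was lower by less than 20 points. In Irx3, 4 DMPs had 100 % in wt and 8.83 % in βerko MEFs, and the one with 5 reads in wt and 9 in βerko MEFs missed the threshold (adjusted p = 0.324, Fisher's exact test).

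Meis2 held 2 clusters of 5 DMPs each, with means of 100 and 9.54 % in one and 97.1 and 6.78 % in the other, at a median of 7 and 8 reads in wt. The deepest Meis2 DMP, 4730 bp into the gene, had 95.7 % in wt (92 reads) and 14.6 % in βerko MEFs (110 reads) (adjusted p = 3.64e-31, Fisher's exact test). The low depth of the Meis2 clusters in wt was thus not shared by all of the gene's DMPs.

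The Barx1 cluster of 5 DMPs lay 78 to 149 bp after the gene start, with 88.0 and 16.5 %. The Nkx3-2 stretch held 3 DMPs with 97.6 and 18.2 %. Cux1 and Cux2, whose bodies stayed within 10 points of wt, each had a cluster of 3 DMPs, with 96.7 and 9.97 % in Cux1 and 91.7 and 5.08 % in Cux2. Cux2 thus combined a hypomethylated stretch 1698 to 1717 bp into the gene with a hypermethylated DMP at 3276 bp, where 6.90 % of 58 reads were methylated in wt and 95 % of 60 reads were so in βerko MEFs (adjusted p = 1.22e-21, Fisher's exact test).

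The DMPs upstream of Alx1 had at least 25 reads in each library. At 1479 bp before the gene start, 85.9 % of 71 reads were methylated in wt (exact 95 % confidence interval 75.6 to 93.0 %) and 2.56 % of 78 reads were so in βerko MEFs (0.312 to 8.96 %). At 1510 bp, 81.4 % of 70 reads in wt (70.3 to 89.7 %) and 7.69 % of 78 reads in βerko MEFs were methylated. The proximal pair, 383 and 392 bp before the start, had 84.0 and 92.0 % in wt (25 reads) and 11.1 and 14.3 % in βerko MEFs (63 reads). All 4 passed the threshold, with adjusted p-values of at most 2.13e-08 (Fisher's exact test).

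Single DMPs with more than 60 reads in both libraries were found in Six6, Gbx2 and Barx2 as well. In the coding sequence of Six6, 87.0 % of 77 reads were methylated in wt (exact 95 % confidence interval 77.4 to 93.6 %) and 5.19 % of 77 reads were so in βerko MEFs (1.43 to 12.8 %). This position also lies in the gene model 4930447C04Rik. In the transcript of Gbx2, at a position shared with D130058E05Rik, 88.3 % of 94 reads and 10.3 % of 78 reads were methylated, and in the coding sequence of Barx2 84.8 % of 66 reads and 10.4 % of 77 reads. At lower depth, 2 DMPs of Otx1 lay upstream, and these 703 and 732 bp before the gene start had 96.0 and 94.0 % in wt (50 reads) and 3.23 % each in βerko MEFs (31 reads). Upstream of Lhx8, a DMP 1715 bp before the start had 90.5 % (42 reads) and 8.14 % (86 reads). In the coding sequence of Nkx2-2, which overlaps the antisense model Nkx2-2as, 2 DMPs had 92.3 % (26 reads) and 86.2 % (29 reads) in wt against 4 % (25 reads) and 10.9 % (64 reads) in βerko MEFs.

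None of the hypermethylated DMPs lay in a cluster, but some had neighbours that were higher as well. Beside the Alx4 DMP 33020 bp into the gene (19.1 and 87.0 %), the position at 32995 bp had 7.69 and 68.6 %. The one at 33034 bp had 21.4 and 67.4 %. Beside the Dlx4 DMP at 3123 bp (16.7 and 85.7 %), the position at 3141 bp had 25 and 85.7 %. At 947 bp before the start of Six2, methylation was 9.68 % in wt (31 reads) and 89.7 % in βerko MEFs (39 reads), and at 1139 bp it was 12.9 % (31 reads) and 96.7 % (30 reads). Just inside Six2, 49 bp after the start, a hypomethylated DMP had 88.9 % in wt (9 reads) and 1.82 % in βerko MEFs (55 reads) (adjusted p = 3.12e-06, Fisher's exact test). Six2 thus had DMPs of opposite sign on the 2 sides of its start. En1 showed the same order, with a hypermethylated DMP 171 bp before the start (18.4 % of 38 reads and 94.4 % of 18 reads) and hypomethylated ones from 1056 bp into the gene (100 % of 12 reads and 4.55 % of 22 reads at the first). A DMP in a noncoding exon of Dlx2, 1011 bp into the gene, had 15.3 % in wt (59 reads) and 82.9 % in βerko MEFs (76 reads). Its neighbours went the other way, with 78.8 and 29.3 % at 963 bp and 63.9 and 5.26 % at 1042 bp. The hypermethylated DMP of Lhx5, with 6 reads in wt, missed the threshold (adjusted p = 0.0641, Fisher's exact test).

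Because ERβ binds oestrogen response elements, their palindromic form, GGTCA and its reverse complement TGACC with any 3 bases between them, which reads alike on both strands, was looked for in NCBIM37. It was in none of the 54 promoters of 2 kb, against 0.252 % of all promoters. It was in 5 of 54 bodies (Cux1, Cux2, Lhx8, Meis1 and Prrx1), which is 9.26 %, against 4.16 % of all bodies, whose lengths differ. None of these 5 bodies was among the 10 with a loss beyond 20 points, which were 18.5 % of the 54, so that few were to be met among 5. The promoters of Lhx8 and Prrx1 were among the 7 lower ones, but their elements lay in the bodies. A link between the element and methylation was not tested. Variants of the element, among them the consensus of the paper with its shorter spacer, were not searched for. The paper reports no classical element in the regions where it found ERβ bound. Around all DMPs it found such elements, but no enrichment of them.

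Esr2 itself lies on chromosome 12, as do Six4, Six6 and Gsc among the homeobox genes, and Six4 and Six6 lie about 3 Mb away from it. None of these 3 genes had a mean difference beyond 20 points, but neither had 28 of the 36 promoters and 44 of the 54 bodies in all. The Six4 promoter had 4 positions, too few for a mean, and its body, at 3.40 % in wt, could not be lower by 20 points. The part of nearness to Esr2 was not tested.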

How the data were processed

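The authors made 1 RRBS library per genotype, and the submitters' processing notes name CASAVA 1.4 and the build mm9. The paper gives the Genomatix Mining Station for mapping. The table deposited by the authors for cytosines covered in both libraries holds percent methylation only, and read counts per library were deposited for DMPs. The total depth per library was not used here.

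All but 12 mitochondrial positions were looked up in NCBIM37, and each of these 826925 was a CpG cytosine. Positions were assigned to the longest protein-coding GENCODE model per gene symbol. Means per gene needed at least 5 positions, and "beyond 20 points" is a fixed difference without a test, as there are no replicates. Fisher's exact test was adjusted with untested positions at a p-value of 1. Intervals of single positions are exact. Genes with such a difference, a cluster of DMPs or the highest or lowest level were named by rule, and the remaining genes are given for completeness. The genes, lists and tests were chosen with earlier results of these data known. Scripts were tested on simulated data. Python 3.11.15, NumPy 2.4.6, pandas 2.3.3, SciPy 1.17.1 and matplotlib 3.10.9 were used.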

Additional observations from a re-analysis of the deposited data

How the results depend on the processing

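No paired analysis was possible because there is 1 library per genotype and the libraries carry no replicate numbers. Counting each MspI fragment once was an alternative chosen after seeing the data. No median difference changed sign under any alternative. The 7 promoters lower by more than 20 points became 4 with a window from 500 bp upstream to 100 bp downstream of the gene start, 14 beyond 10 points and 4 beyond 30 points. The count of 1 higher promoter, that of Alx4 with 9 positions, became 0 with at least 10 positions and with both shorter windows. In the shortest window Alx4 was still higher by 44.1 points, but over 4 positions, fewer than the 5 required. Lhx8, Otx1 and Prrx1 had no covered position in that window, and Prrx1 had none from 1 kb upstream to 500 bp downstream either. The 10 lower bodies became 17 beyond 10 points and 3 beyond 30 points, and the 0 higher bodies became 1 with medians over positions, 1 beyond 10 points and 2 without positions shared with other gene models. Those 2 were Dlx4, with 52.3 % in wt and 81.4 % in βerko MEFs over 7 positions, and Nkx2-2, with 23.0 and 52.5 % over 8 positions. With limits of 10 and 90 % methylation, the 126 hypomethylated DMPs became 40 and the 12 hypermethylated became 2. The median promoter difference of −7.51 points was −0.75 with the shortest window and −3.99 with medians over positions. Among single genes, the median over positions gave −1.29 points for Irx2, −2.36 for Shox2, −72.6 for Meis2 and −51.5 for Nkx3-2 (bodies) and −4.81 for the Otx1 promoter. A window from 1 kb upstream to 500 bp downstream gave −26.4 points for Alx1, −59.0 for Otx1 and 5.61 for Alx4, and took Lhx8 (−18.4) and Nkx2-2 (−18.9) below 20 points, and the shortest window gave −6.49 for Nkx2-2. Counting fragments once took the Barx1 body to −19.3 points. Apart from these counts of covered positions, the causes of the shifts were not tested.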
